A study of Mus musculus with 6 samples.

Results

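The signature transporters of nephron tubule segments were taken as 9 solute carrier genes: Slc34a1, Slc22a6, Slc22a8, Slc17a1, Slc13a1, Slc5a1 and Slc3a1 of the proximal tubule, Slc12a1 of the loop of Henle and Slc12a3 of the distal convoluted tubule. They were chosen by name, with earlier results of these data known. Each was read at every probe set that the array annotation pairs with that symbol alone. Of the 9 genes, 7 had such a probe set, and they gave 8 of the 12422 probe sets measured. Slc22a8 and Slc13a1 had none and are named without values. Whole embryonic mouse kidneys at E14.5, counted in days after mating (Theiler stage 22) were measured on 6 Affymetrix MG_U74Av2 arrays. The wild type, strain label CD-1, gave 4 samples of 2 pooled kidneys each. The Wnt4 mutant, allele Wnt4tm1Amc with the strain label 129, gave 2 samples, each of 8 to 10 kidneys from 4 to 5 embryos. All 6 samples were whole excised organs of unknown sex whose RNA was amplified in 1 round, and their protocol speaks of CD-1 matings. Genotype, strain label and pool size cannot be told apart in this design.

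The nephron is the tube in which the kidney makes urine, and each stretch of it carries its own transport proteins. The proximal tubule takes back phosphate, sugar, amino acids and sulphate from the filtrate and secretes organic anions. The thick ascending limb of the loop of Henle and the distal convoluted tubule then reclaim salt through related cotransporters, the targets of loop and thiazide diuretics. Per the design text, Wnt4 is needed to induce the renal vesicle, the epithelial precursor of the nephron, and wild-type and mutant kidneys were compared to find genes of that vesicle and of what it becomes. For these carriers the comparison asks which of them were already read in the wild type at this stage, and how far each differed without Wnt4.

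The signal of Wnt4 on the wild-type arrays was 829, 739, 946 and 699, and on the mutant arrays 74.2 and 34.5, a difference of -3.59 ± 0.24 (SE; limma, adjusted p = 6.11e-05). Whether its probe set lies in the altered part of the gene was not checked here. Values are probe set signals, the summarised brightness of the probes for a transcript. Each array had been scaled to a like level, with medians between 172.7 and 191.0. Differences are mutant minus wild type in log2(signal + 16), and those of dim genes are understated on this scale. A probe set was tested when its signal was above the 40th percentile of its own array, a signal of 101 to 110.4, on at least 2 arrays, and called when the adjusted p of limma with Benjamini-Hochberg adjustment over all 7981 tested was under 0.05. Of these, 488 (6.11%) were lower and 371 (4.65%) were higher in the mutant, and the median difference was 0.02. The counts were 188 and 114 without mutant replicate 2, 198 and 133 without mutant replicate 1, and 320 were lower without wild-type replicate 1. The replicates are pools of kidneys, and how many embryos a wild-type pool came from is not known here, so p-values measure only the spread between these pools.

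Slc34a1, Slc12a1 and Slc22a6 were above the 40th percentile on all 4 wild-type arrays and on no mutant array, and all 3 fell in the Wnt4 mutant. On the log2(signal + 16) scale the phosphate carrier fell by 3.26, the loop cotransporter fell by 4.06 and the organic anion carrier fell by 2.12. The other 5 probe sets, of Slc17a1, Slc5a1, Slc3a1 and Slc12a3, were dim in both genotypes and could not be tested under the filter. The 3 tested probe sets passed it through their wild-type arrays alone, so their count is a description beside the 6.11% of all probe sets called lower, and nothing was read from it. In bulk samples, fewer cells of a tubule type and less RNA per cell cannot be told apart.

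Slc34a1 encodes the sodium-phosphate cotransporter NaPi-IIa of the proximal brush border, which takes phosphate back from the filtrate. Its probe set (101552_at) read 606, 519.8, 528 and 601 in the wild type and 53.6 and 36.4 in the mutant. The wild-type arrays lay close together, with the mutant arrays far below them. The wild-type mean was 564 ± 46.0 (SD, n = 4) and the mutant mean 45.0 ± 12.2 (SD, n = 2). The difference was -3.26 ± 0.18 (SE; 95% interval -3.67 to -2.84), with an adjusted p of 2.79e-05 by limma with Benjamini-Hochberg adjustment. Slc34a1 had the 9th smallest p and the 10th lowest difference of all probe sets tested. It stood at the 71.1st to 74.4th percentile of the wild-type arrays and at the 27.1st and 23.2nd of the mutant arrays.

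Slc12a1 encodes NKCC2, the apical sodium-potassium-chloride cotransporter of the thick ascending limb and the target of furosemide. Its probe set (99094_at) read 849, 537, 514 and 669 in the wild type and 52.2 and 5.88 in the mutant. The mutant arrays both lay below the wild type but far from each other, replicate 2 being the lower. The wild-type mean was 642 ± 154 (SD, n = 4) and the mutant mean 29.0 ± 32.7 (SD, n = 2). The difference was -4.06 ± 0.41 (SE; 95% interval -4.99 to -3.14), with an adjusted p of 4.92e-04 by limma with Benjamini-Hochberg adjustment, and it was the 3rd lowest of all tested. Its size rests in part on the dimmest mutant value: the difference was -3.24 without mutant replicate 2 and -4.88 without mutant replicate 1, and -5.04 or -2.95 when 1 or 64 was added before taking logs. Each of these was called.

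Slc22a6 encodes OAT1, the basolateral organic anion transporter that loads the proximal tubule cell with anions for secretion. Its probe set (97431_at) read 167, 183, 138 and 158 in the wild type and 33.4 and 17.5 in the mutant. The groups did not overlap, and the wild-type signals lay just under and just over the middle of their arrays, at the 44.7th to 50.3rd percentile. The means were 162 ± 18.6 (SD, n = 4) and 25.4 ± 11.2 (SD, n = 2). The difference was -2.12 ± 0.34 (SE; 95% interval -2.89 to -1.35), with an adjusted p of 0.00485 by limma with Benjamini-Hochberg adjustment, the 261st smallest p. With all probe sets tested and mutant replicate 2 left out, a fit chosen after seeing the data, it was -1.84 with an adjusted p of 0.0702 and so was not called.

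The sizes of the 3 falls were set against each other. Per array, the log2 difference between a pair of carriers was set between the groups, which asks whether 1 of them fell further than the other. Slc12a1 fell by 0.80 more than Slc34a1 (exact permutation test, two-sided, p = 0.267, adjusted p = 0.267 over 3 pairs). This gap depends on the offset and on mutant replicate 2: it was 1.40 with an offset of 1 and 0.42 with 64, and without that replicate the falls were -3.24 for Slc12a1 and -3.05 for Slc34a1. Slc34a1 fell by 1.14 more than Slc22a6, and Slc12a1 fell by 1.94 more than Slc22a6, each with an exact permutation p of 0.133 (adjusted p = 0.2). That is the smallest two-sided p this permutation test can give with 4 arrays against 2. The test therefore could not pass the threshold whatever the spread. All 3 carriers were dim in the mutant, with means of 45.0, 29.0 and 25.4 for Slc34a1, Slc12a1 and Slc22a6. Their wild-type means were 564, 642 and 162, so Slc22a6 had the least room to fall on this scale. These gaps cannot tell a smaller change in Slc22a6 from its lower starting signal. The log2 difference between Slc34a1 and Slc22a6 was 1.43 to 1.82 on the wild-type arrays and 0.50 and 0.65 on the mutant arrays.

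**Figure D1:**
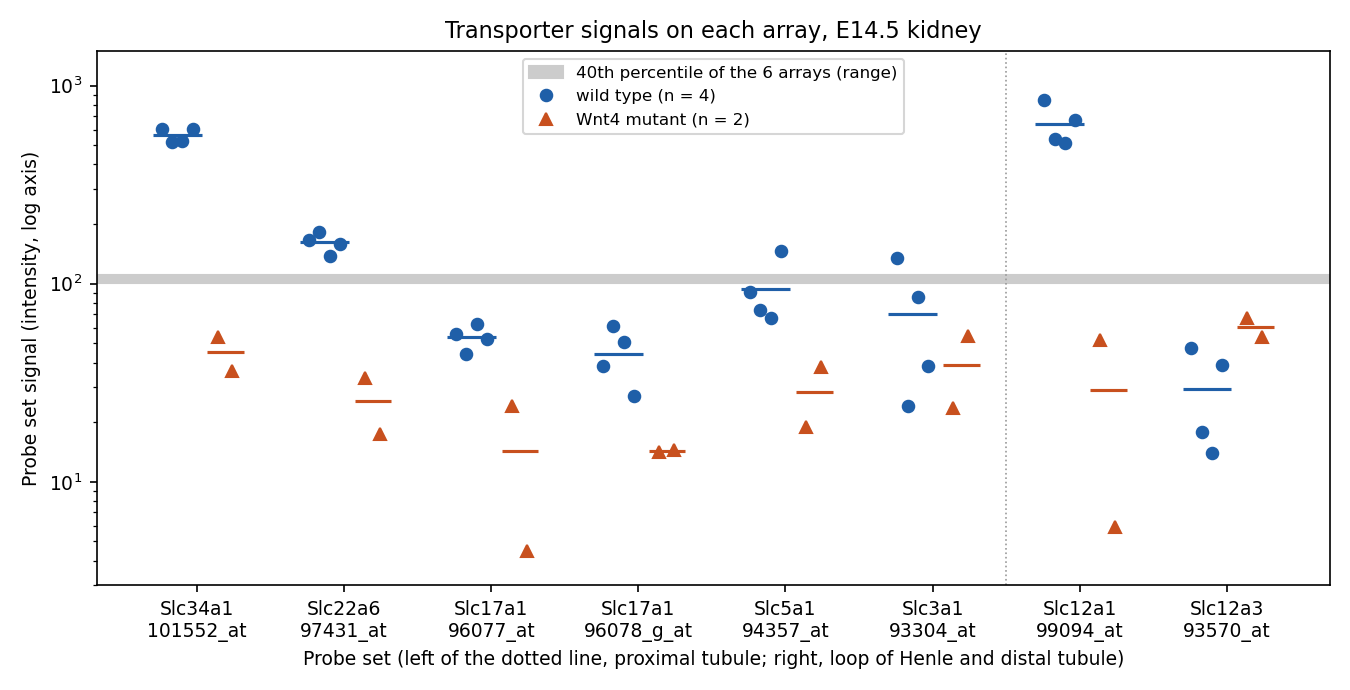
Signal of each carrier probe set on each array (log axis), with blue circles for the 4 wild-type arrays, orange triangles for the 2 mutant arrays and short lines for the group means. The grey band is the range of the 40th percentile over the 6 arrays, 101 to 110.4; the wild-type points of Slc34a1, Slc22a6 and Slc12a1 lie above it, and every mutant point lies under it.

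The stretch just before the transcription start is shown for these 3 genes, because they are the carriers that fell and a reader can compare what precedes them. It is the RefSeq window of 250 bases upstream of the start, build GRCm38.p6, plus strand, written 5′ to 3′. Slc34a1 lies at chr13:55399398-55399647, Slc22a6 at chr19:8617746-8617995 and Slc12a1 at chr2:125152350-125152599. Capitals mark GTTAAT, the core letters bound by the transcription factor HNF1, on either strand (ATTAAC when it lies on the minus strand).
Slc34a1: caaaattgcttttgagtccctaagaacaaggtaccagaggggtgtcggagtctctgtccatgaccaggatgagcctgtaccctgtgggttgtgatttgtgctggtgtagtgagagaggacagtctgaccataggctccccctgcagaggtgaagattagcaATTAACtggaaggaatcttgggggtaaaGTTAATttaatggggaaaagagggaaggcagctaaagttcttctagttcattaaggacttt
Slc22a6: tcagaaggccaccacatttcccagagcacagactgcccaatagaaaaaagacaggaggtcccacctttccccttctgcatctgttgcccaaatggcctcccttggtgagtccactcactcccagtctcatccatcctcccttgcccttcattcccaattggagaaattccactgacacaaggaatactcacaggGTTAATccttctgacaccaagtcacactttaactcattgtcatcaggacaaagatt
Slc12a1: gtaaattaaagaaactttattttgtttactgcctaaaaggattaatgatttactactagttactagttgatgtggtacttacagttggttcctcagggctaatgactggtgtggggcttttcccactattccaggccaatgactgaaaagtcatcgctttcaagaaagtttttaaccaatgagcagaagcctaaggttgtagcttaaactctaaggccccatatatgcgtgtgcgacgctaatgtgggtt
The Slc34a1 window held the letters at bases -89 to -84 on the minus strand and -61 to -56 on the plus strand, counted from the start. Slc22a6 held them at -56 to -51, and the Slc12a1 window held none. Of the members without a called value, Slc22a8, whose product OAT3 is a second basolateral organic anion carrier, held them at -81 to -76. Over all 32851 windows of this length 6.43% held the letters. Of the other motifs searched on both strands, CAAAGTCCA (a sequence bound by HNF4, in 0.384% of windows) lay in the window of Slc3a1 at -39 to -31, AGGTCA (the core of nuclear receptor sites, 14.0%) in those of Slc17a1, and TATAAA (the TATA box, 12.4%) in those of Slc3a1 and Slc12a3. Windows were found for 8 of the 9 members, all but Slc13a1. The windows of Slc34a1 and Slc22a6 held none of these other motifs, and that of Slc12a1 held no motif searched. A match describes letters and is not a measured binding site.

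Slc17a1 encodes NPT1, an apical anion transporter of the proximal tubule that also carries urate. Its first probe set (96077_at) read 55.7, 44.4, 62.5 and 52.7 in the wild type and 24.2 and 4.49 in the mutant. Its second (96078_g_at) read 38.6, 61.0, 50.5 and 27.1 in the wild type and 14.1 and 14.51 in the mutant. At both probe sets every mutant array lay below every wild-type array, and no array of either genotype was above the 40th percentile. In the fit of all 12422 probe sets without a filter the differences were -1.28 ± 0.38 (SE; limma, adjusted p = 0.102) and -0.96 ± 0.36 (adjusted p = 0.184), neither past the threshold. The first was -0.79 without mutant replicate 2 and -1.76 without mutant replicate 1.

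Slc5a1 encodes SGLT1, the sodium-glucose cotransporter of the late proximal tubule and of the gut. Its probe set (94357_at) read 90.6, 73.9, 66.9 and 145 in the wild type and 18.9 and 38.2 in the mutant. The mutant arrays lay below the wild type, of which replicate 4 alone was above the 40th percentile. Without the filter the difference was -1.29 ± 0.41 (SE; limma, adjusted p = 0.118). Slc3a1 encodes rBAT, the subunit that brings the cystine carrier to the brush border. Its probe set (93304_at) read 134, 24.1, 85.6 and 38.6 in the wild type and 23.5 and 54.6 in the mutant. The groups overlapped, and the wild-type values spread over more than the gap between the means (70.6 ± 49.9, SD, n = 4, and 39.0 ± 22.0, SD, n = 2). The difference without the filter was -0.53 ± 0.57 (SE; limma, adjusted p = 0.702), with a 95% interval from -1.83 to 0.78. It was -0.11 without mutant replicate 1, -0.95 without mutant replicate 2, -0.20 without wild-type replicate 1 and -0.83 without wild-type replicate 2.

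Slc12a3 encodes NCC, the thiazide-sensitive sodium-chloride cotransporter, and was the one carrier with higher mutant values. Its probe set (93570_at) read 47.6, 17.8, 14.0 and 38.8 in the wild type and 67.2 and 54.1 in the mutant. Both mutant arrays lay above all wild-type arrays, yet all 6 were under the 40th percentile. The difference without the filter was 0.82 ± 0.42 (SE; 95% interval -0.14 to 1.77; limma, adjusted p = 0.342), so no change was detectable at this brightness.

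Across the 8 probe sets, the mutant pair was below the whole wild type at 6 and above it at 1 (Slc12a3). At 1 (Slc3a1) the ranges of the groups overlapped. Of all 12422 probe sets, 14.0% lay below in this way and 15.7% above. Of the 4441 probe sets that the filter dropped, 5.52% lay below and 10.5% above. Without the filter 3 of the 8 carrier probe sets were called lower, against 3.14% of all probe sets, and they were the same 3. BioB, a spiked hybridization control, read 1645 to 1903 on the wild-type arrays and 929.6 and 950.1 on the mutant arrays at its middle probe set, and its part in the dim signals was not tested.

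**Figure D2:**
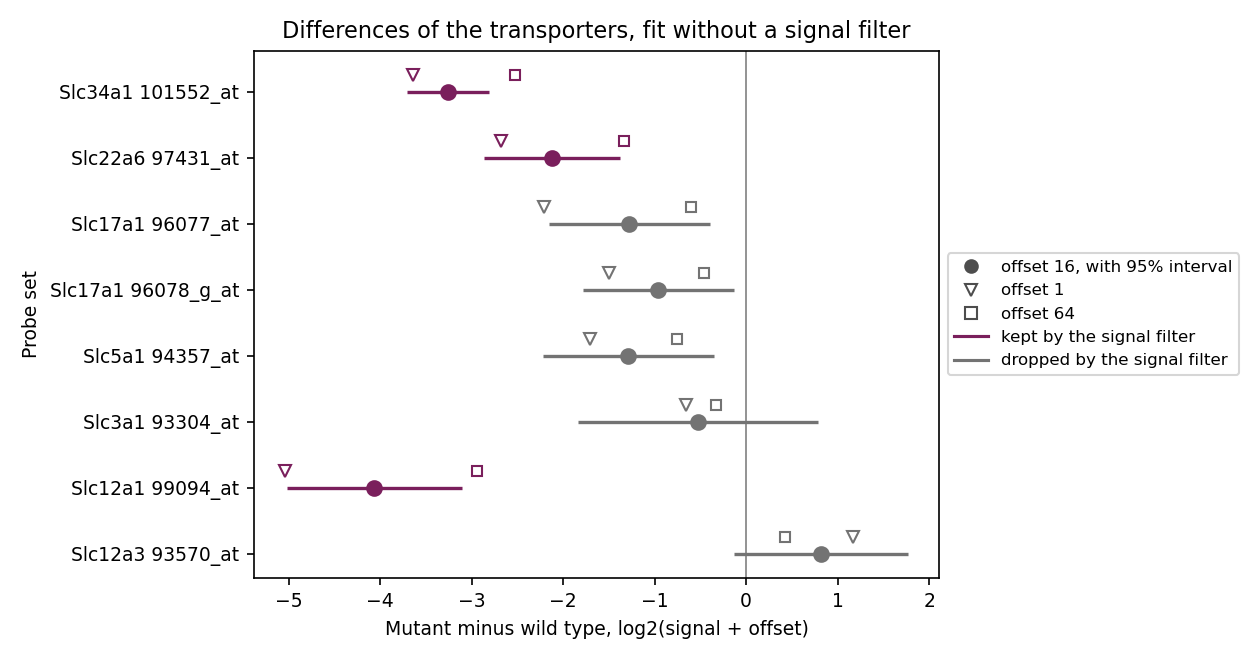
Difference of each carrier probe set, mutant minus wild type, in the fit of all probe sets without a filter. Circles with bars are log2(signal + 16) with 95% intervals, triangles and squares the same with 1 or 64 added; the bars of Slc3a1 and Slc12a3 cross 0, and of the 5 dropped probe sets none was called.

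The other genes of the same segments were mixed. All 4 lists of tubule genes were chosen with earlier results of these data known, so their counts are descriptions only. Of 45 other proximal tubule transporters, 25 were on the array and 15 probe sets of 14 genes were tested. Of these, 4 were lower, none was higher, and 11 did not pass, with a median difference of -0.14 against 0.02 for all tested. Over all tested probe sets, 6.11% were lower and 4.65% were higher. Slc2a2 and the called probe set of Slc6a6 passed the filter through their wild-type arrays alone, as the carriers did. Slc2a2, the basolateral glucose carrier GLUT2, read 181, 171, 162 and 177 in the wild type and 22.4 and 41.4 in the mutant (-2.01, limma adjusted p = 0.00417). Slc7a9, the light subunit that pairs with the Slc3a1 product, read 185, 224, 228 and 259 against 130 and 53.7, and its call (-1.24, limma adjusted p = 0.0380) was lost in 9 of 14 other settings, among them without mutant replicate 2 and without any 1 of the wild-type replicates. Slc6a6, the taurine carrier, fell at one probe set (-1.95, limma adjusted p = 0.0112) and not at the other (-0.07, adjusted p = 0.837). Slc6a13, a GABA and taurine carrier, fell by 1.11 (limma, adjusted p = 0.0053). The call for Slc6a6 was lost in 3 of 14 other settings: without mutant replicate 2, with wild-type replicates 2 and 4 left out and with the replicate block. That for Slc6a13 was lost without mutant replicate 1. Among genes without a called probe set, the water channel Aqp1 (-0.06 at the tested probe set and -0.53 without the filter at an untested one) and the phosphate carrier Slc20a1 (0.08) differed least. At its tested probe set Aqp1 read 129, 26.3, 169 and 170 in the wild type and 78.9 and 125 in the mutant (SE 0.60). The small Aqp1 difference rests on wild-type replicate 2, which lay below both mutant arrays, so it does not show an equal level. The count of 4 became 2 without mutant replicate 2, with wild-type replicates 2 and 4 left out and with the replicate number as a block, and 1 with the filter at the 60th percentile.

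Of 33 loop of Henle and distal transport genes, 16 were on the array and 10 were tested. Of these, 3 were lower, 2 were higher and 5 were not called, with a median of 0.0022. The shares over all tested probe sets were 6.11% lower and 4.65% higher. Fxyd2, a regulatory subunit of the sodium pump, read 1444, 1155, 1491 and 1724 in the wild type and 265 and 219.9 in the mutant (-2.50 ± 0.16, SE; limma, adjusted p = 5.5e-05). Calb1, a calcium buffer of the distal tubule that the ureteric bud also makes, fell by 0.61 (limma, adjusted p = 0.00539), a call lost without mutant replicate 2. Slc12a2 encodes NKCC1, the close relative of the Slc12a1 product that many cell types make, and it moved the other way: it read 1882, 2011, 2001 and 1546 in the wild type and 2667 and 2779.5 in the mutant (0.55, limma adjusted p = 0.0203). This call was lost without either mutant replicate and with a variance estimate that has no trend. The sodium-calcium exchanger Slc8a1 was higher too at 1 probe set, 99524_at (1.05, limma adjusted p = 6.6e-04), and Slc12a7, a potassium-chloride cotransporter, was lower (-0.47, limma adjusted p = 0.0430, and 0.0599 without the filter). Stk39 and Slc41a1 had the smallest differences, -0.0038 and 0.0082. Umod, the best known protein of the thick ascending limb, stayed between 9.38 and 48.7 on all 6 arrays. The count of 3 became 1 without mutant replicate 2.

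The brush border, endocytosis and scaffold genes, which hold such carriers in the membrane and line the proximal tubule, included several large falls. Of 20 symbols, Nherf1 and Nherf2 among them also under their older names, 15 were on the array, and of 19 tested probe sets 11, of 10 genes, were lower, 8 were not called and none was higher, with a median of -0.96 (-0.85 over all 23 probe sets without the filter). The share of all probe sets called lower was 6.11%, and several of these, among them Pdzk1, Mep1a and Vil1, passed the filter through their wild-type arrays alone, as the carriers did. Pdzk1, the scaffold that binds the NaPi-IIa tail, read 675, 518.5, 803 and 739 in the wild type and 10.1 and 11.0 in the mutant at 97288_at (-4.70 ± 0.22, SE; limma, adjusted p = 1.06e-05). At its other probe set, 97287_at, Pdzk1 fell by 3.23. Mep1a (meprin, a brush border protease), Vil1 (villin, which bundles the actin of microvilli) and Lrp2 (megalin, the endocytic receptor) had differences of -3.21, -2.96 and -2.49, with limma adjusted p-values of 7.26e-04, 0.00241 and 5.5e-04. Dab2, an endocytic adaptor, was not called at any of its 3 probe sets (-0.12, -0.21 and 0.33). Mep1b was not called at 162186_r_at (-0.20), while its untested probe set 94936_at read 104, 62.1, 87.9 and 90.3 against 34.6 and 12.9 (-1.40 without the filter, limma adjusted p = 0.0787). Of the transcription factors of the tubule, 16 of 24 were on the array and 4 of 15 tested probe sets were lower, with none higher and a median of -0.64 (-0.35 over all 20 probe sets without the filter). These were Pax8 (-2.23), Lhx1 (-1.76), Sim1 (-1.19) and Irx3 (-0.70), of which Sim1 passed the filter through its wild-type arrays alone. The call for Sim1 was lost in 7 of 14 other settings, among them without either mutant replicate and without wild-type replicate 1, 2 or 3. That for Irx3 was lost in 3 of 15, without either mutant replicate and with the block. The factor count was 2 without either mutant replicate and with the replicate number as a block, and 7 with wild-type replicates 2 and 4 left out. The factors that differed least were Nr1i3, a nuclear receptor, at -0.015, 0.017 and 0.28 over its 3 probe sets, and Cux1 at -0.04 (0.22 at an untested probe set). Hnf4a, a nuclear receptor of the proximal tubule, read 242, 14.9, 181 and 230 in the wild type and 25.3 and 30.1 in the mutant (-1.68, limma adjusted p = 0.230), with wild-type replicate 2 as low as the mutant arrays.

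**Figure D3:**
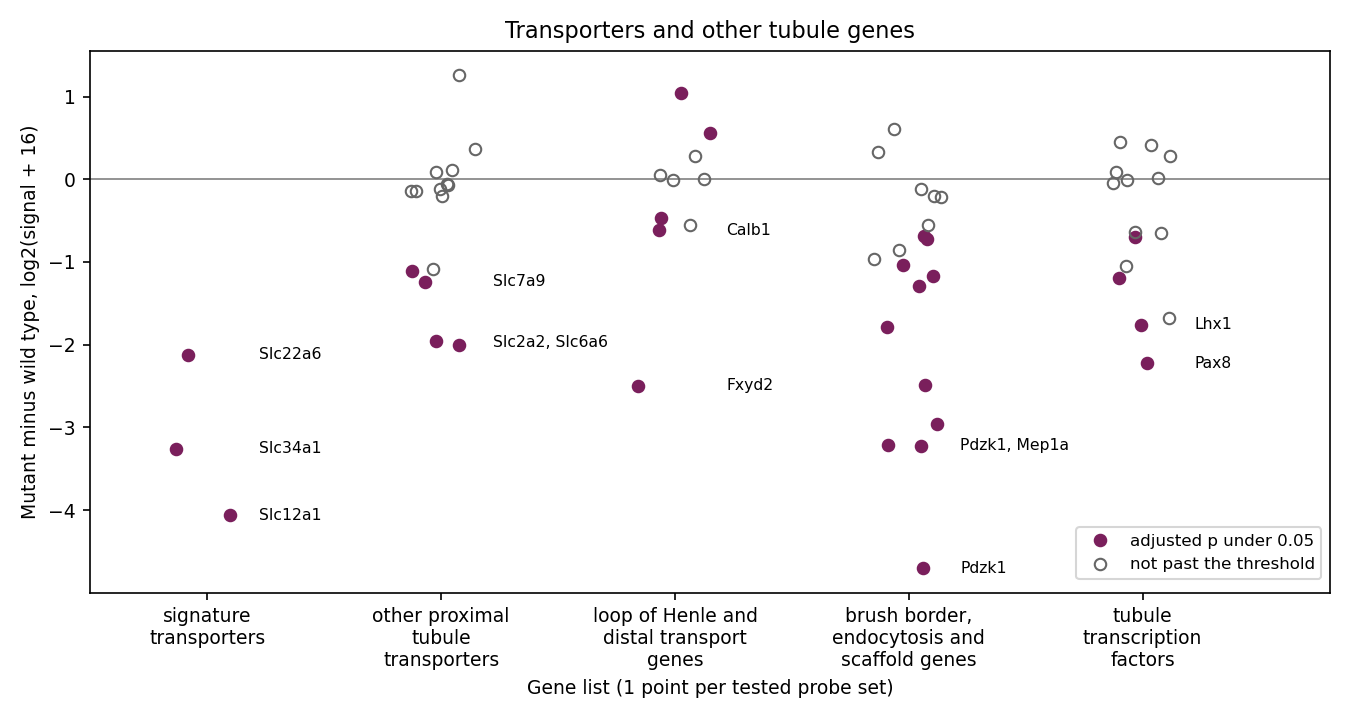
Difference of every tested probe set in log2(signal + 16), mutant minus wild type, for the 3 tested carriers and the 4 lists of other tubule genes. Filled points passed the threshold, open points did not, and names mark up to 3 of the lowest called points of each list; the carriers lie at -2.12, -3.26 and -4.06.

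Profiles most like those of Slc34a1 and Slc12a1 were looked up over the 6 arrays among 7236 named probe sets tested, by the root mean square distance between log2(signal + 16) values taken relative to the wild-type mean. Nearest to Slc34a1 were Vil1 (0.244), Pdzk1 at 97287_at (0.247), Ctse (0.257), Mep1a (0.258) and Wnt4 (0.289). Nearest to Slc12a1 were Wnt4 (0.46), Slc34a1 (0.606), Pdzk1 at 97288_at (0.673), Napsa (0.676), which encodes an aspartic protease, and Lrp6 (0.725), a Wnt coreceptor. The list is a description of 6 arrays of 2 kinds: any gene with a fall of like size comes near. Ctse, another aspartic protease (cathepsin E), read 1473, 1298, 1730 and 1207 against 150.5 and 153 (-3.09).

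Markers of other cell types were read beside these falls as summed signals. The progenitor markers summed to 6744 to 7885 in the wild type and 6177 and 6229 in the mutant (5 of 7 on the array, 1 of 7 probe sets lower), and those of the ureteric bud to 6715 to 7338 and 7117 to 7187 (2 of 6 tested lower, 2 higher). Ret, a defining receptor of the bud, was dim at 30.5 to 104 in the wild type and 8.08 and 8.61 in the mutant. Stromal markers summed to 7302 to 8093 in the wild type and 15654 to 15995 in the mutant (4 of 6 higher). Skeletal muscle markers summed to 838 to 1671 and 5600.4 to 5733 (5 of 6 higher), and erythroid ones to 22924 to 31790.2 and 41740.3 to 43133 (3 of 5 higher). The erythroid list was mixed: Hbb-y at both its probe sets and Hbb-bh1 were higher. Hba-a1 (-0.0039) and Alas2 (-0.46) were not called. Endothelial and adrenal markers had no call. For these marker counts the shares over all tested probe sets were 6.11% lower and 4.65% higher. Liver and intestine share some of these carriers: the intestinal markers, 5 of 7 on the array and none tested, summed to only 66.4 to 152 and 120.0 to 124, and 8 of 9 hepatocyte markers to 423 to 523 and 388 to 533, with Afp lower as the one tested. The part of these cell types in the falls of the carriers was not tested.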

How the data were processed

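The deposited values are probe set signals (intensity, linear), made by the authors with the Affymetrix software GCOS (submitters' processing notes, no version named). Detection calls were not used. Precision is limited by the number of arrays. Signals spanned 0.21 to 36134, and the mean without the lowest and highest 2% was 500.27 to 500.29 on each array. No pair of arrays shared more than 0.04% of values. The 66 Affymetrix control probe sets were left out. Gene symbols are those of the platform annotation, brought up to date through gene identifiers in the RefSeq table of GRCm38.p6: 10833 of 12422 probe sets had 1 symbol (10817 updated, 16 not), 396 had several and were not named, and 1193 were unnamed here. Probe sets above the 40th percentile of their array on at least 2 arrays were kept (7981 kept, 4441 dropped). Values were analysed as log2(signal + 16) with limma 3.58.1 (R 4.3.3; lmFit, eBayes with a variance trend, no covariate) and Benjamini-Hochberg adjustment over the 7981 kept. The script was tested on simulated data. Pairs of carriers were compared with an exact permutation test (scipy 1.17.1).

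The members, the 4 lists of tubule genes and the 9 marker lists were chosen with earlier results of these data known. Named genes were all members, Wnt4, from each list up to 4 called genes with the largest difference and 2 other genes with the smallest, and the 5 genes most like Slc34a1 and Slc12a1. Slc12a7, Umod, Hnf4a and the marker genes Ret, Afp, Hbb-y, Hbb-bh1, Hba-a1 and Alas2 fall outside this rule and were named after their values were seen. Replicate numbers are shared by wild type and mutant in the labels, but nothing there says that they mark a litter or day. Other settings were offsets of 1 and 64, a filter at the 60th percentile or none, quantile normalization, array weights, no variance trend, a replicate block and left-out replicates.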

Additional observations from a re-analysis of the deposited data

Results flagged for a closer look

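The 47 probe sets looked at were those of the members, Wnt4, the named tubule genes and the genes of most alike profile. Of these, 2 had a wild-type array far from the other 3, and chance alone picks out about 5% of such groups of 4. At a dim probe set of Slc8a1 (93168_at), the sodium-calcium exchanger, wild-type replicate 4 read 1.5 while the others read 37.2 to 40.4. At the probe set of the kinase Stk39 (160806_at), wild-type replicate 2 read 291.7 while the others read 304.5 to 305.9, a narrow spread in which a gap of this size is small beside the signal. No member probe set was picked out in this way.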

How the results depend on the processing

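Slc34a1 and Slc12a1 were called lower in all 23 alternatives, with differences from -3.64 to -2.53 and from -5.04 to -2.95. Slc22a6 was called in 21 of 22 (-2.68 to -1.34) and was not testable with the filter at the 60th percentile; without a filter and without mutant replicate 2 it was -1.84 (limma, adjusted p = 0.0702). The untested carriers were called in none of 9 fits each, and none changed sign, but their sizes moved: Slc17a1 at 96077_at by more than the replicate spread in 8 of 23 (-2.21 to -0.60), and Slc3a1 from -1.23 to -0.11. The replicate number as a block gave -3.26, -4.16 and -2.23 for Slc34a1, Slc12a1 and Slc22a6. Replicate numbers 3 and 4 are wild type only, so these differences rest on replicates 1 and 2 of each group. The deviations of same-numbered arrays from their group means had r = 0.003 and -0.015. Those of the 2 mutant arrays mirror each other, so these values cannot settle whether the numbers mark a shared litter or day. Over all probe sets, the 488 lower calls ranged from 188 to 553 and the 371 higher calls from 114 to 448 when 1 array was left out, the fewest being without a mutant replicate (198 and 133 without mutant replicate 1, 188 and 114 without mutant replicate 2; 320 lower without wild-type replicate 1). With array weights they were 738 and 613; the cause was not tested. The lower calls of other proximal transporters (4) were 2 with the block, 2 without wild-type replicates 2 and 4, 1 with the filter at the 60th percentile and 2 to 4 with 1 array left out. Those of loop and distal genes (3) were 1 to 3 with 1 array left out, brush border calls (11) were 7 with the filter at the 60th percentile, and those of transcription factors (4) were 2 with the block, 7 without wild-type replicates 2 and 4, and 2 to 6 with 1 array left out. Fewer genes are tested at the higher filter. Dim signals limit what can be said of Slc17a1, Slc5a1, Slc3a1 and Slc12a3.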

Other observations

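A few further transport genes that the filter dropped passed the threshold when all 12422 probe sets were tested, by limma with Benjamini-Hochberg adjustment. They were picked out after their values were seen. Of all 4441 dropped probe sets, 36 were called in that fit, in either direction. Slc27a2, a fatty acid transporter and acyl-CoA ligase of the proximal tubule, read 143, 93.9, 79.4 and 97.1 in the wild type and 8.41 and 10.6 in the mutant, a difference of -2.20 (adjusted p = 0.00956). Kcnj1, the potassium channel ROMK that works beside the Slc12a1 product in the thick ascending limb, read 109.5, 75.0, 99.6 and 101 against 28.6 and 10.0, a difference of -1.71 at 103973_at (adjusted p = 0.0348). Its other probe set, 103972_at, was dimmer and was not called (-0.79, adjusted p = 0.326). There the mutant arrays read 10.5 and 3.97, and the lowest wild-type array, replicate 1, read 10.7. The groups were thus barely apart at 103972_at, and nothing was read from that order. At the probe set of Slc27a2 and at 103973_at the groups did not overlap. The bile acid carrier Slc10a2 and, at 1 of its 2 probe sets, the prostaglandin receptor Ptger3 went the other way. Slc10a2 read 1.92 to 4.64 in the wild type and 37.4 and 19.7 in the mutant (adjusted p = 0.0453), and Ptger3 read 9.16 to 28.3 and 85.1 and 106 at 96588_at (adjusted p = 0.0388). The other Ptger3 probe set, 96589_at, was not called and had the opposite sign (-0.50, adjusted p = 0.603). The filter had dropped all of these probe sets because fewer than 2 arrays exceeded the 40th percentile.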
